A study of Mus musculus with 32 samples.

Results

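The 7 GABA-A receptor subunit genes Gabra2, Gabra3, Gabra4, Gabra5, Gabrb1, Gabrb2 and Gabrd were followed through libraries of mouse frontal cortex, in 2 genotypes and at 4 amounts of input RNA. They were taken by symbol from the table of counts, which listed 33000 genes, and all 7 were found. The mice were 3 months old and were either wild-type (WT) C57BL/6 or homozygous for GFAP-IL6, a transgene in which the promoter of the astrocyte gene Gfap drives the cytokine interleukin 6, so that the cytokine is made in the brain itself. Total RNA of the cortex entered reverse transcription at 50, 10, 1 or 0.5 ng. Every pairing of a genotype with an input was sequenced as 4 libraries, giving 32. 3'Pool-seq primes cDNA at the poly(A) tail, pools the samples at once and sequences the 3′ ends, so that a transcript gives reads near its end only. The experiment asked how little RNA the method can start from.

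GABA-A receptors are chloride channels that open when GABA, the main inhibitory transmitter of the brain, binds to them. Each channel is built from several subunits, in most cases alpha and beta subunits with a gamma or a delta subunit, and GABA binds where an alpha meets a beta subunit. Receptors with a gamma subunit gather mostly at synapses and carry brief inhibition, whereas those with delta, often joined to alpha4 in the forebrain, lie outside the synapse and carry a steady current. Gabra2, Gabra3, Gabra4 and Gabra5 encode alpha subunits, Gabrb1 and Gabrb2 encode beta subunits and Gabrd encodes delta.

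Since the reads come from the ends of transcripts, the annotated end of each gene decides which reads could be counted. Positions are from the GENCODE vM21 annotation of GRCm38, the build the reads were aligned to (mm10). The 7 genes are all protein-coding and lie in 5 places. Gabra2 (chr5:70957597-71095849, minus strand), Gabra4 (chr5:71569749-71658308, minus strand) and Gabrb1 (chr5:71658113-72149037, plus strand) share a cluster with Gabrg1. Gabra5 (chr7:57407672-57510059, minus strand) lies near Gabrg3. Gabrb2 (chr11:42419757-42629028, plus strand) lies near Gabra6. Gabra3 (chrX:72432681-72656848, minus strand) and Gabrd (chr4:155384980-155398112, minus strand) complete the set.

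The last 30 bases of the annotated protein-coding transcript that reaches the end of each gene are shown because oligo-dT priming starts there. They were read 5′ to 3′ on the strand of the gene, within its final exon. Capitals mark a poly(A) signal, AATAAA or its common variant ATTAAA, found in the last 40 bases on the transcript strand only.
Gabrb1 (chr5:72149008-72149037): tatttcAATAAAaaaaatttaagaaaccaa
Gabra4 (chr5:71569749-71569778): acttgtccataaaagcatatAATAAAatta
Gabrd (chr4:155384980-155385009): tcccagcatgaAATAAAgccttgacctggc
Gabra2 (chr5:70957597-70957626): ggatacctgtgATTAAAatttaaacatttc
Gabra5 (chr7:57407672-57407701): taaatgttcATTAAAaaaatgtaaaaatca
Gabra3 (chrX:72432681-72432710): gcggctgttcATTAAActctttatgaattg
Gabrb2 (chr11:42628999-42629028): catgtgctcagagtaaagattcttcaaatt
Gabrb1, Gabra4 and Gabrd held AATAAA, as did 57.9% of 20530 coding transcripts that reach the end of their gene. Gabra2, Gabra5 and Gabra3 held ATTAAA without AATAAA, as did 12.5% of those transcripts. Gabrb2 held neither, as did 29.5%, which says only that these letters are not in that window. The length of Gabrb2 in the deposited table, 4103 bases, was 2257 bases shorter than in the newer annotation (6360 bases), the largest gap of the 7. Gabra4 (1897 bases) and Gabra2 (1788 bases), both higher in CPM, came next. Where in each gene these bases lie was not examined. Reads that fell outside the annotation used for counting were not counted, and whether Gabrb2 or any other member lost some in this way was not tested.

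The strand setting of the counting is not stated in the sources used here, so reads of overlapping genes on opposite strands cannot be told apart. Gabra4 and Gabrb1 start head to head and share 46 exonic bases, far from the 3′ end of either. The antisense gene Gm9962 covers 148 exonic bases of Gabra5 and reaches its 3′ end. It was counted at a mean of 2.90 CPM at 50 ng, where CPM are counts scaled to a library total of 1e6.

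The libraries held 261378 to 9840302 counts. The median fell from 3603629 (50 ng) and 4463016 (10 ng) to 1457725 (1 ng) and 1428120 (0.5 ng). A floor of 3 counts came to between 0.305 and 11.5 CPM, and it covers counting error only, since the reads carried no molecular identifiers. The transgene's own gene checked the labels at 50 ng: Il6 ran from 0.717 to 8.40 CPM in the GFAP-IL6 libraries and from 0 to 0.277 CPM in WT. At 10 ng it ran from 1.88 to 10.1 CPM and from 0 to 0.758 CPM. At 1 ng it went against the label of WT replicate 3, with 13 counts (10.4 CPM). The libraries labelled GFAP-IL6 replicates 2 and 3 had 0 Il6 counts, where the floor of 3 counts came to 11.5 and 1.67 CPM. Genotype directions at 1 ng are therefore those of the libraries as labelled. Gfap was highest at 1 ng in these GFAP-IL6 replicates 2 and 3 (76.5 and 61.3 CPM). Among the WT libraries it was highest in replicate 3 (22.5 CPM), above the library labelled GFAP-IL6 replicate 4 (11.8 CPM). Other markers followed the labels at 1 ng. Summed microglia markers ran from 117 to 252 CPM in WT and from 284 to 524 CPM in GFAP-IL6. Summed astrocyte markers ran from 1247 to 1404 CPM and from 1454 to 1890 CPM. Whether any label was exchanged was not tested. None of the 8 libraries at 0.5 ng held an Il6 count (0 of 8). At 50 ng the summed neuron markers lay between 6121 and 7260 CPM. The striatal gene Drd2 had 0 counts in all 8 libraries, but striatal markers were present. The 6 on the list summed to 158 to 263 CPM in WT and 109 to 160 CPM in GFAP-IL6. Between genotypes 4 of them were tested and 0 called, with a median log2 fold change of −0.64. An unadjusted p under 0.05 (edgeR) was found for 3, beside 5.63% of all genes. GFAP-IL6 replicate 4 stood apart, with astrocyte markers summing to 3336 CPM at 50 ng, against 1552 to 1747 CPM in the other GFAP-IL6 libraries and 1413 to 1507 CPM in WT, and to 2430 CPM at 10 ng. The sum was carried by the glutamate transporter genes Slc1a2 (2602 CPM, others of its genotype at most 1202) and Slc1a3 (489.6 CPM, at most 251.1). At both inputs 2 of the 6 markers were above, 2 within and 2 below the other GFAP-IL6 libraries, and Gfap (30.7 CPM) and Gja1 (110.4 CPM) were the lowest of that genotype at 50 ng. Its Il6 was also the lowest there, 0.717 CPM from 4 counts. Its oligodendrocyte markers summed to 3546 CPM at 50 ng, the lowest of the 8. WT replicate 3 carried markers of the choroid plexus at 3386 CPM at 50 ng, nearly all of it Ttr, against 54.4 to 339 CPM in the other 7, and the WT libraries numbered 3 at the lower inputs carried them at 3019 to 3123 CPM.

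The level of each subunit is given first at the highest input, 50 ng. Gabrb1, the beta1 subunit, ran at 143, 151, 138 and 156 CPM in WT libraries 1 to 4. In GFAP-IL6 libraries 1 to 4 it ran at 142, 211, 171 and 228 CPM. It had the highest CPM of the 7 in every one of these 8 libraries, and libraries 2 and 4 of GFAP-IL6 were the highest.

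Gabra4, which encodes alpha4, stood at 132, 115, 109 and 113 CPM in WT and at 108, 93.3, 88.5 and 134 CPM in GFAP-IL6. Gabrd, the partner of alpha4 outside the synapse, stood at 78.3, 73.7, 91.8 and 102 CPM in WT and at 83.7, 81.2, 74.0 and 58.6 CPM in GFAP-IL6. Both genotypes overlapped for each gene, and the lowest Gabrd value was that of GFAP-IL6 replicate 4.

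Gabra2, which encodes the alpha2 subunit, was at 66.1, 41.4, 50.9 and 53.7 CPM in WT. In GFAP-IL6 it was at 69.8, 70.0, 69.9 and 115.1 CPM. The groups did not overlap, GFAP-IL6 being the higher, but WT replicate 1 came within a few CPM of the lowest of them. Gabra5, the alpha5 subunit known best from the hippocampus, was at 64.5, 75.2, 55.1 and 49.7 CPM in WT and at 49.5, 67.2, 61.8 and 49.1 CPM in GFAP-IL6, with full overlap.

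The remaining subunits were low in CPM. Gabra3, the alpha3 subunit, was at 14.4, 9.78, 16.7 and 18.7 CPM in WT and at 17.7, 8.40, 14.99 and 26.3 CPM in GFAP-IL6. Gabrb2, the beta2 subunit, was at 4.43, 9.03, 2.50 and 5.17 CPM in WT and at 3.48, 13.1, 3.46 and 9.50 CPM in GFAP-IL6. Those Gabrb2 values rest on 9 to 53 counts per library.

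**Figure D1:**
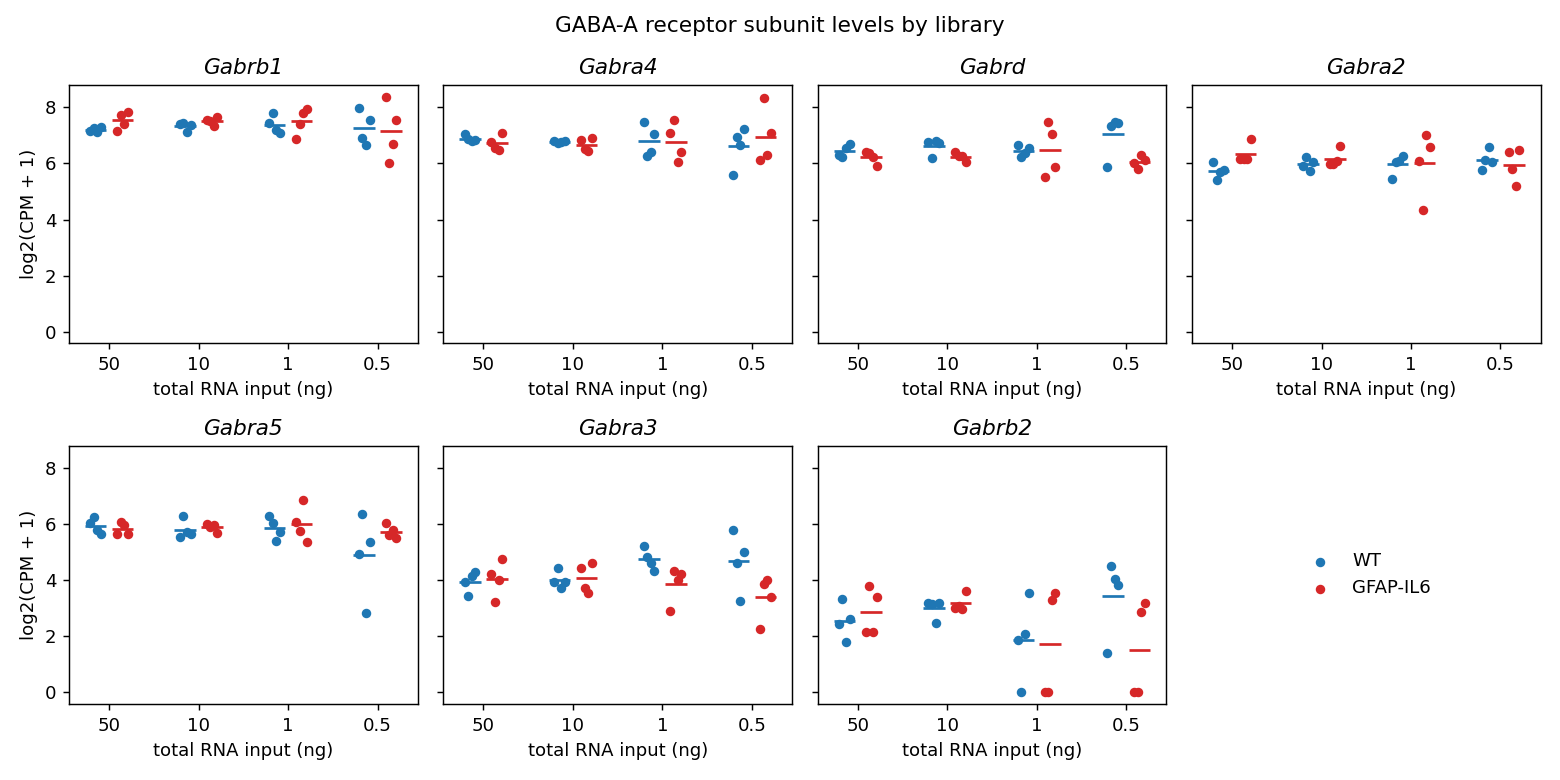
Level of each subunit, as log2(CPM + 1), in every library by total RNA input (ng). Points are libraries and short lines are group means on that scale. Gabrb2 is the only member with points at 0, in 3 libraries at 1 ng and 2 at 0.5 ng.

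Over both genotypes at 50 ng, the order by CPM was Gabrb1 (167 ± 34.0 CPM, SD, n = 8), Gabra4 (112 ± 16.1), Gabrd (80.4 ± 13.0), Gabra2 (67.1 ± 22.1), Gabra5 (59.0 ± 9.68), Gabra3 (15.9 ± 5.58) and Gabrb2 (6.33 ± 3.75). The first made up 33.0% of the summed CPM of the 7 and the last 1.25%. Each neighbouring pair was compared within libraries by a two-sided exact permutation test of the log2 ratio, which flips its sign in every combination and cannot go below p = 0.0078125 with 8 libraries. The pairs and their directions came from the means of these same 8 libraries, so the test describes how steady each step was across libraries. With Benjamini-Hochberg adjustment over the 6 pairs, 4 of the 6 steps in CPM passed 0.05. Gabrb1 exceeded Gabra4, Gabra4 exceeded Gabrd and Gabra5 exceeded Gabra3 in 8 of 8 libraries (exact permutation, adjusted p = 0.0156 each). Gabra3 exceeded Gabrb2 in 7 of 8 (exact permutation, adjusted p = 0.0352). Gabrd and Gabra2 did not differ beyond their spread (7 of 8, exact permutation, adjusted p = 0.206), nor did Gabra2 and Gabra5 (6 of 8, adjusted p = 0.539 by the same permutation test). These 2 steps also changed places between the genotypes: WT means ran Gabrd, Gabra5, Gabra2, and GFAP-IL6 means ran Gabra2, Gabrd, Gabra5.

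CPM do not account for the length of a gene, and per kilobase of the deposited gene length the order at 50 ng was another one. It ran Gabrd (41.9 ± 6.74 CPM per kb, SD, n = 8), Gabra4 (26.7 ± 3.85), Gabra5 (22.2 ± 3.65), Gabrb1 (12.2 ± 2.48), Gabra2 (11.5 ± 3.78), Gabra3 (4.11 ± 1.44) and Gabrb2 (1.54 ± 0.915). Gabrb1, the longest of the 7 genes at 13737 bases, thus moved from the first place to the fourth, and Gabrd, the shortest at 1921 bases, from the third to the first. Per kb, with the pairs again taken from the order of these libraries, 4 of 6 steps passed as well. The pairs not told apart on this scale were Gabra4 and Gabra5 (exact permutation, adjusted p = 0.0844) and Gabrb1 and Gabra2 (exact permutation, adjusted p = 0.312). Reads of this method come from transcript ends, so a longer gene need not give more of them, and which of the scales follows the number of transcripts more closely was not tested. Gabra3 and Gabrb2 were the lowest on both.

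**Figure D2:**
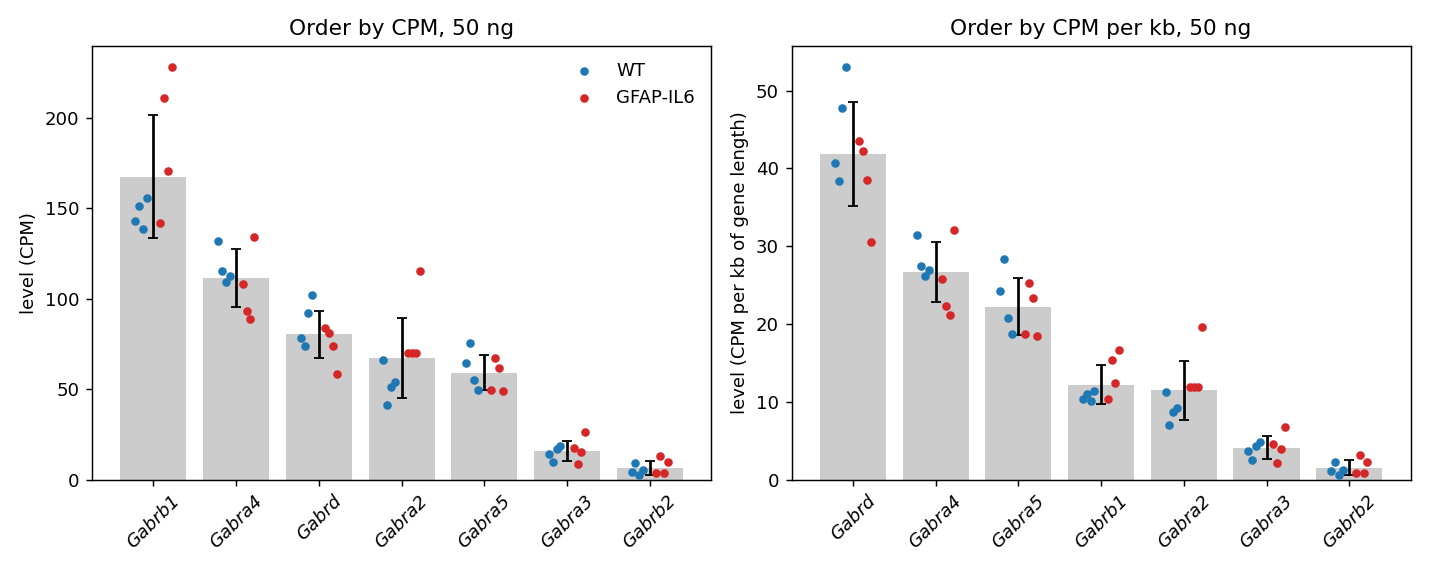
Mean level at 50 ng of each subunit in CPM (left) and in CPM per kb of gene length (right), as bars with SD over 8 libraries. Points are libraries, coloured by genotype. Gabrb1 leads in CPM and Gabrd per kb, while Gabra3 and Gabrb2 close both orders.

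The order of the means in CPM was the same at 10, 1 and 0.5 ng as at 50 ng, and how many single libraries followed it was counted without a test. Gabrb1 had the highest CPM in 8, 8, 5 and 5 of 8 libraries at 50, 10, 1 and 0.5 ng. Gabrb2 had the lowest in 7, 8, 8 and 7. The full order of 7 was that of the 50 ng means in 4 libraries at 50 ng and in 4, 2 and 0 at the lower inputs. Steps in CPM that passed the permutation test numbered 4 of 6 at 10 ng, 2 at 1 ng (Gabra5 above Gabra3 and Gabra3 above Gabrb2) and 0 at 0.5 ng. At 0.5 ng, Gabrd led in WT replicates 2 and 3 and Gabra4 in GFAP-IL6 replicate 2, at 319 CPM.

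The genotype comparison asked whether the subunits differ between GFAP-IL6 and WT frontal cortex. No member passed an adjusted p of 0.05 at any input (edgeR quasi-likelihood test, 4 against 4 libraries, Benjamini-Hochberg over all genes tested): 0 of 7 were called with 50, 10 and 0.5 ng and 0 of 6 with 1 ng. Gabrb2 did not pass the filter on low counts at 1 ng. Of all genes tested, 0.28%, 0.332%, 0.0323% and 0.0117% were called at 50, 10, 1 and 0.5 ng. With a log2 fold change beyond 1 in addition, 0.266% were called at 10 ng and the other shares did not move. Unadjusted p-values under 0.05 numbered 1 (Gabra2), 1 (Gabrd), 0 and 1 (Gabrd) among the members at these inputs, where 5.63%, 7.48%, 3.59% and 2.87% of all genes tested were under it, and DESeq2 called 0 members at each. In bulk tissue, fewer cells of a type and less RNA per cell cannot be told apart.

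Of the alpha subunits, Gabra2 had the largest difference at 50 ng. Its mean was 81.2 ± 22.6 CPM in GFAP-IL6 and 53.0 ± 10.2 CPM in WT (SD, n = 4 each). The log2 fold change was 0.58 ± 0.206 (SE; edgeR, adjusted p = 0.658). Groups that do not overlap were found for 1 of the 7 members at 50 ng, this one, and for 3.53% of genes with a mean CPM above 1. Without GFAP-IL6 replicate 4, the library with high Slc1a2 and Slc1a3, the log2 fold change was 0.35 (edgeR, adjusted p = 0.695), and without WT replicate 3, the one with choroid plexus markers, it was 0.56 (edgeR, adjusted p = 0.942). The part of the makeup of either library in the result was not tested.

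At 10 ng, Gabra2 ran at 58.6, 74.0, 52.5 and 64.6 CPM in WT and at 62.5, 62.9, 67.0 and 97.7 CPM in GFAP-IL6. The groups overlapped, and GFAP-IL6 replicate 4 was again the highest of the 8. The log2 fold change was 0.21 ± 0.187 (SE; edgeR, adjusted p = 0.822), and 0.01 without that library. At 1 ng the difference was 0.34 ± 0.408 and at 0.5 ng −0.11 ± 0.510, both smaller than their SE.

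Gabrd had a lower mean in GFAP-IL6 at 3 of the 4 inputs. At 10 ng it stood at 108, 72.6, 112 and 106 CPM in WT and at 83.4, 75.2, 75.8 and 65.1 CPM in GFAP-IL6. WT replicate 2 fell among the GFAP-IL6 values, and the other WT libraries lay above all of them. The log2 fold change was −0.45 ± 0.165 (SE; edgeR, adjusted p = 0.483), against −0.27 ± 0.181 at 50 ng (adjusted p = 0.836). Without GFAP-IL6 replicate 4 these were −0.39 and −0.17.

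At 0.5 ng, Gabrd stood at 57.4, 163, 178 and 175 CPM in WT and at 63.4, 54.2, 77.8 and 68.0 CPM in GFAP-IL6. Here WT replicate 1, also the WT library with the highest Gfap at 0.5 ng (30.8 CPM), lay within the GFAP-IL6 range of Gabrd. Its summed astrocyte markers (1315 CPM) and microglia markers (146 CPM) were below every GFAP-IL6 library there (at least 1474 and 288 CPM). The other WT libraries were above every GFAP-IL6 library in Gabrd. The log2 fold change was −1.13 ± 0.426 (SE; edgeR, adjusted p = 0.9999). In a single fit of all 32 libraries, which gives every group the same spread, this was the only member called in any alternative (log2 fold change −1.13, edgeR, adjusted p = 0.0292). That fit called 655 genes at 0.5 ng, against 1 in the fit of the 8 libraries alone. At 1 ng the sign was the opposite, 0.15 ± 0.368, with GFAP-IL6 libraries from 44.7 to 176 CPM around WT libraries from 73.7 to 98.8 CPM.

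Gabra4, the usual partner of delta, had smaller differences than Gabrd at each of the 4 inputs, which were not tested against those of Gabrd. Its log2 fold changes were −0.17 ± 0.177, −0.10 ± 0.158, −0.07 ± 0.346 and 0.44 ± 0.483 at 50, 10, 1 and 0.5 ng (SE), each smaller than its SE. In WT at 10 ng it varied least of any member and group, from 104 to 111 CPM. Gabra5 gave −0.14 ± 0.192, 0.06 ± 0.193, 0.20 ± 0.391 and 0.39 ± 0.717 at the same inputs. Its value in WT replicate 3 at 0.5 ng, 6.17 CPM from 8 counts, was far below the other 3 WT libraries (29.9 to 82.4 CPM).

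Gabra3 had opposite signs at the higher and lower inputs, 0.17 ± 0.283 and 0.19 ± 0.306 at 50 and 10 ng and −0.90 ± 0.662 and −1.57 ± 1.03 at 1 and 0.5 ng (log2 fold change, SE). At 1 ng it stood at 36.7, 27.3, 23.3 and 19.2 CPM in WT and at 6.48, 19.1, 15.1 and 17.9 CPM in GFAP-IL6. These groups did not overlap, the only such member at 1 ng, where 2.7% of genes with a mean CPM above 1 did not, and WT replicate 4 lay only just above the highest GFAP-IL6 value. Without the library labelled WT replicate 3, whose Il6 went against its label, the log2 fold change at 1 ng was −0.99. At 10 and 0.5 ng, 0 members had groups apart (4.06% and 2.35% of genes). Without GFAP-IL6 replicate 4 the sign at the higher inputs turned, to −0.12 at 50 ng and −0.042 at 10 ng. The edgeR adjusted p of Gabra3 was 0.997 at 1 ng and 0.9999 at 0.5 ng.

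Neither beta subunit came near a call. For Gabrb1 the log2 fold change was 0.31 ± 0.175 with 50 ng, 0.15 ± 0.147 with 10 ng, 0.17 ± 0.260 with 1 ng and 0.05 ± 0.443 with 0.5 ng (SE), with an edgeR adjusted p of 0.835 at the first. Gabrb2 gave 0.42 ± 0.461 and 0.18 ± 0.400 with 50 and 10 ng, and −1.71 ± 1.42 with 0.5 ng. The last rests on 1.66, 21.7, 15.4 and 13.3 CPM in WT and on 0, 0, 6.27 and 8.08 CPM in GFAP-IL6, so the groups overlapped. At 50 ng the Gabrb2 value was 0.10 without GFAP-IL6 replicate 4.

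**Figure D3:**
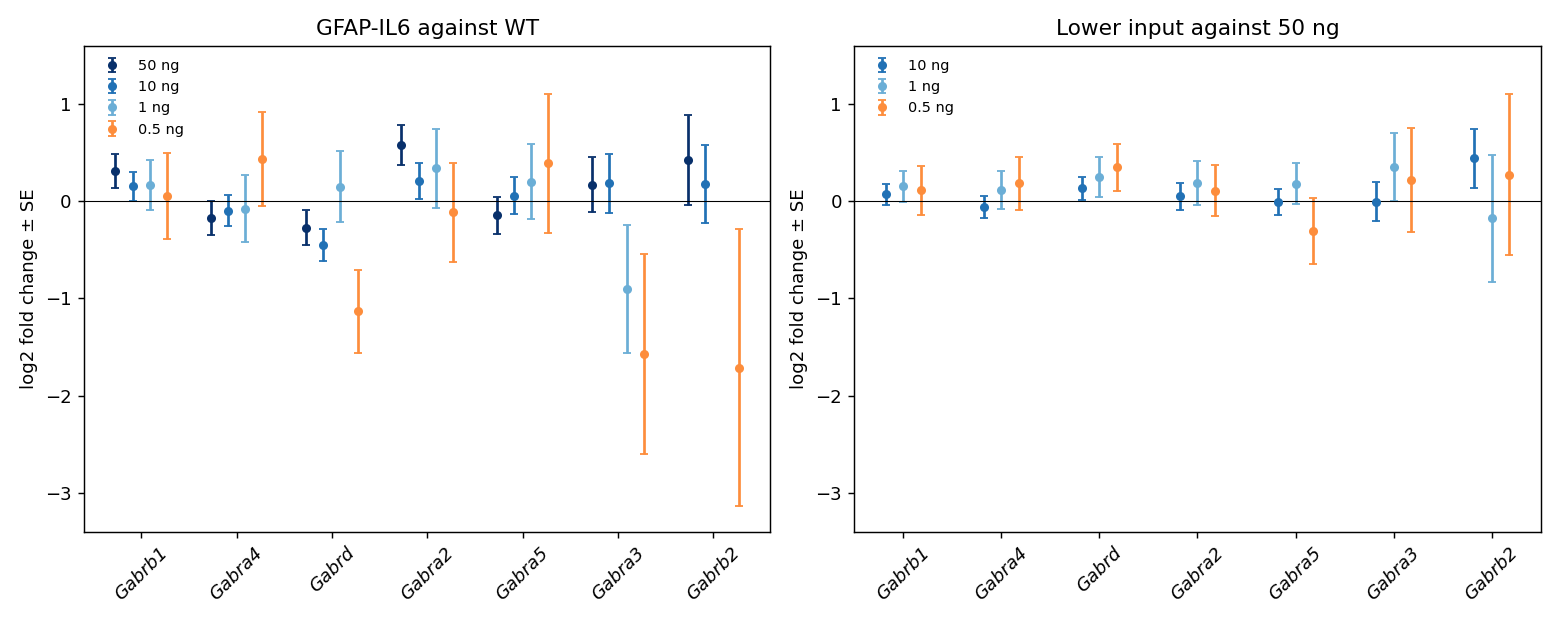
Log2 fold change with SE of each subunit, GFAP-IL6 against WT at each input (left) and each lower input against 50 ng (right), from edgeR. None of the points passed an adjusted p of 0.05, and Gabrb2 has no point at 1 ng on the left because it did not pass the filter on low counts.

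Whether the genotype difference changed with input was tested as an interaction in a fit of all 32 libraries. That fit took libraries of different input as separate, although the labels do not say whether they share RNA. If they do, it counted the same RNA more than once. No member passed at 10, 1 or 0.5 ng against 50 ng (0 of 7 each), where 0.0%, 0.0% and 0.197% of 12164 genes did. The lowest p-values were at 0.5 ng, for Gabra3, whose genotype effect lay below that at 50 ng by a log2 of −1.79 ± 0.812 (SE; edgeR, adjusted p = 0.385), and for Gabrd, by −0.89 ± 0.434 (adjusted p = 0.453). Those 2 were the members under an unadjusted 0.05 at 0.5 ng, where 1307 genes of all (10.7%) were under it and DESeq2 called 244. At 10 and 1 ng there were 0, with 1 and 333 genes of all, and DESeq2 called 0 members at each input.

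No subunit passed the test for a change of its level with input. Each lower input was compared with 50 ng over both genotypes in 16 libraries, with the genotype in the model. No member was called at 10, 1 or 0.5 ng (0 of 7 each, edgeR), where 0.0%, 1.14% and 1.68% of all genes were, and 0 members had an unadjusted p under 0.05 at any of them or were called by DESeq2. With a log2 fold change beyond 1 in addition, the shares at 1 and 0.5 ng were 0.257% and 0.763%. At 10 ng, 0 of 12599 genes passed, with 549 at an unadjusted p under 0.05 and 31 calls by DESeq2. The labels do not say whether libraries of different input came from the same RNA, so the inputs were compared as separate libraries.

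Between 50 and 0.5 ng the log2 fold changes were 0.35 ± 0.239 for Gabrd, 0.27 ± 0.830 for Gabrb2, 0.22 ± 0.537 for Gabra3, 0.18 ± 0.270 for Gabra4, 0.11 ± 0.253 for Gabrb1, 0.11 ± 0.261 for Gabra2 and −0.31 ± 0.341 for Gabra5 (SE). Their median was 0.18, and that of all genes tested −0.06. Intervals of 2 SE ran from −0.13 to 0.83 for Gabrd and from −1.39 to 1.93 for Gabrb2. For the subunits lowest in CPM, even a change of more than 2-fold was thus not detectable. The summed CPM of the 7 were 508 ± 52.0, 512 ± 33.6, 550 ± 87.6 and 542 ± 89.8 at 50, 10, 1 and 0.5 ng (SD, n = 8).

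The spread between libraries was wider at 0.5 ng than at 50 ng for 6 of the 7 members, whereas at 10 ng it was smaller than at 50 ng for 5 of the 7. The coefficient of variation over 8 libraries of Gabra4 was 14.4%, 10.8%, 40.1% and 66.4% at 50, 10, 1 and 0.5 ng. Gabrb1 went through 20.3%, 11.4%, 26.4% and 53.5%, and Gabrd through 16.1%, 21.1%, 44.7% and 53.8%. Among the 7 only Gabra2 had a smaller coefficient at 0.5 ng (29.4%) than at 50 ng (33.0%), the latter including the high GFAP-IL6 replicate 4. Both genotypes enter these coefficients, and they were not tested against each other.

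Counting error alone would give the coefficients a median of 7.57%, 7.10%, 13.4% and 12.9% over the 7 members at these inputs, worked out from the totals of the libraries. The measured medians were 20.3%, 20.3%, 43.1% and 53.8%. The median ratio of measured to counting spread was 2.41 at 50 ng and 3.48 at 0.5 ng. It ran from 2.46 to 7.04 for Gabra4, the widest step, from 2.41 to 2.59 for Gabrb2 and the other way, from 4.36 to 2.27, for Gabra2. Gabrb2 came nearest to its counting error at 10 ng, with 23.8% against 21.0%. At 1 ng it stood at 107% against 52.8%.

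**Figure D4:**
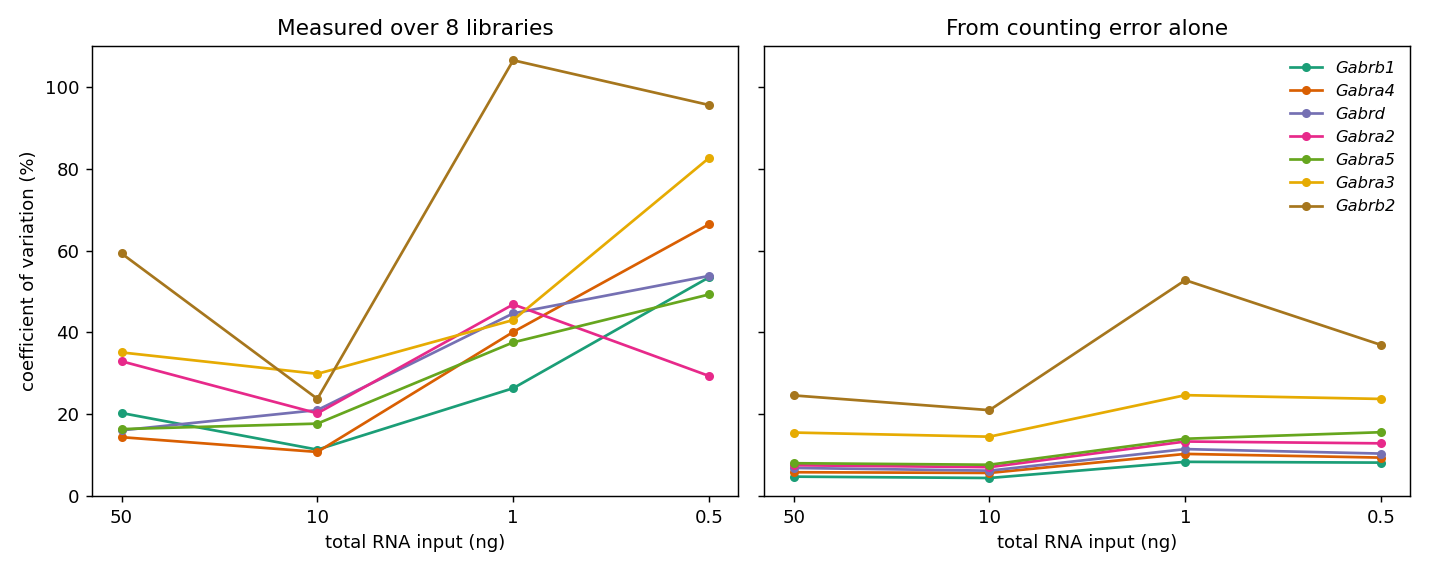
Coefficient of variation (%) of CPM over the 8 libraries of each input, as measured (left) and as counting error alone would give (right), one line per subunit against total RNA input (ng). At 0.5 ng the measured values run from 29.4% to 95.6% and the counting values from 8.22% to 37.0%.

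A library with 0 counts was found for Gabrb2 alone among the members. All 7 were above 1 CPM in 8, 8, 5 and 6 of the 8 libraries at 50, 10, 1 and 0.5 ng, and Gabrb2 was the one missing wherever 1 was missing. At 1 ng it stood at 2.62, 0, 3.21 and 10.6 CPM in WT and at 0, 0, 8.92 and 10.7 CPM in GFAP-IL6. Libraries without a count were thus found in both genotypes at 1 ng and in GFAP-IL6 at 0.5 ng.

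The same-numbered 50 ng library gave the count expected at the depth of each low-input library, although the labels do not say that the same number means the same RNA. Gabrb2 had 0 counts where 4.82, 3.41 and 3.31 were expected at 1 ng (GFAP-IL6 replicates 1 and 2 and WT replicate 2) and where 5.42 and 3.85 were expected at 0.5 ng (GFAP-IL6 replicates 1 and 2). A count of 0 there allows up to 2.16, 11.5 and 8.19 CPM at 1 ng and up to 1.92 and 10.2 CPM at 0.5 ng. The expected counts themselves rest on 12 to 14 counts at 50 ng. In the other direction, WT replicate 3 at 0.5 ng had 20 Gabrb2 counts where 3.24 were expected.

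Over all members, 0 of 56 values at 10 ng, 3 of 55 at 1 ng (5.45%) and 2 of 55 at 0.5 ng (3.64%) were 0 where at least 3 counts were expected. Over all genes the shares were 3.24%, 9.19% and 17.2%. These shares were not matched by expected count, so they do not show that the members were lost less often than other genes. For Gabrb2 alone, 3 of 8 such values at 1 ng and 2 of 8 at 0.5 ng were 0. Other departures came without a 0: Gabra5 in WT replicate 3 at 0.5 ng had 8 counts for 71.4 expected, and Gabra4 in GFAP-IL6 replicate 2 at 0.5 ng had 94 for 27.5 expected.

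**Figure D5:**
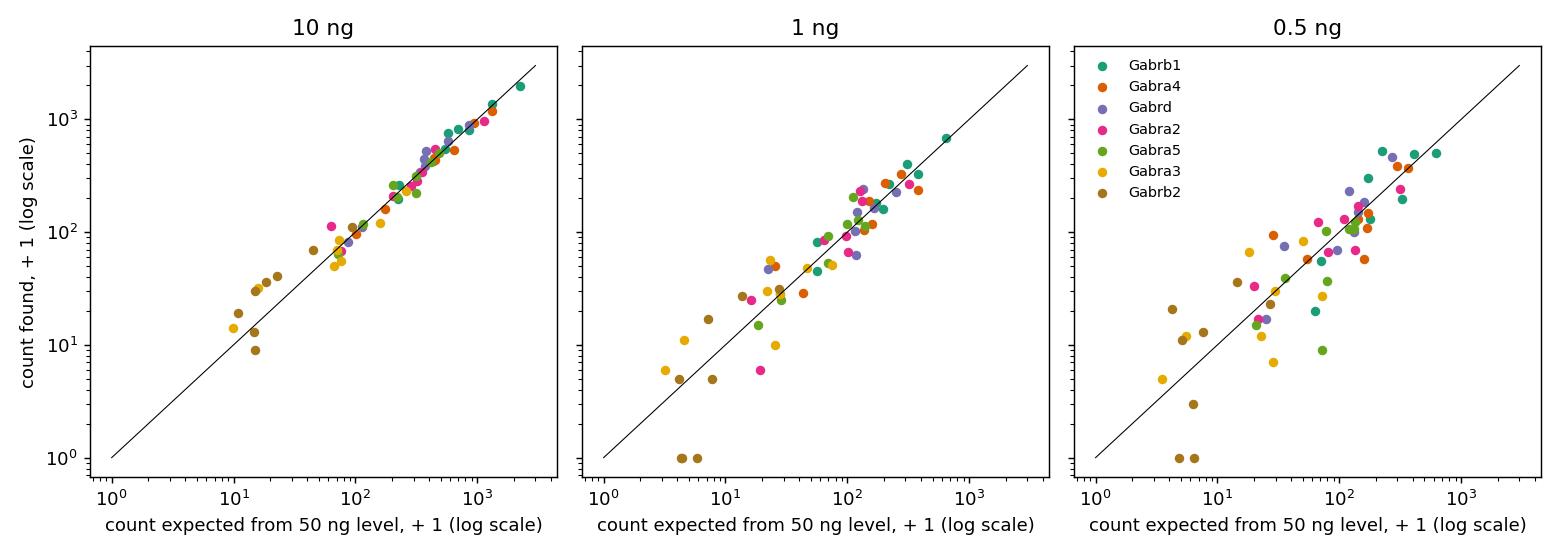
Count found against count expected from the level in the same-numbered 50 ng library, for each subunit and library at 10, 1 and 0.5 ng, both plus 1 on log axes. The line marks equality. Points lie close to it at 10 ng and scatter at 1 and 0.5 ng, where the points at 1 on the vertical axis are the 5 Gabrb2 zeros.

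The genes around the receptor were read in the same fits. Of 12 other GABA-A subunit genes, 5 passed the filter at 50 ng and 0 were called between genotypes in either direction, with a median log2 fold change of −0.04 against −0.0034 for all genes. Gabra6, a cerebellar subunit, and Gabrp had 0 counts in all 8 libraries at 50 ng.

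Of 12 genes of receptor anchoring and assembly, 11 were tested and 0 called (median 0.07). Gabarap, a receptor-associated protein of trafficking, gave −0.05 ± 0.163 and Rdx, which anchors alpha5, gave −0.01 ± 0.163. All 8 genes of GABA synthesis, release, uptake and breakdown were tested and 0 called (median 0.16), with −0.18 ± 0.155 for Gad1, which makes GABA. Both chloride transporters, which set the direction of the current, were tested and 0 called, with 0.17 ± 0.173 for Slc12a5 and 0.20 ± 0.217 for Slc12a2. Of 5 GABA-B receptor genes, 4 were tested and 0 called, with 0.15 ± 0.196 for Gabbr1 and 0.24 ± 0.186 for Gabbr2.

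None of these lists had a called gene at 10, 1 or 0.5 ng between genotypes, or between a lower input and 50 ng by edgeR. At an unadjusted p under 0.05 there were 2 genes at 50 ng between genotypes, both of the anchoring list, 4 with 10 ng, 0 with 1 ng and 1 with 0.5 ng, beside the 5.63%, 7.48%, 3.59% and 2.87% of all genes. DESeq2 called 1 gene of the lists in 1 comparison, Gabarap at 0.5 against 50 ng, which edgeR put at a log2 fold change of 0.54 ± 0.150 (SE, adjusted p = 0.0653).

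For each subunit the genes with the most similar pattern were sought by Pearson's r of log2(CPM + 1) over the 16 libraries at 50 and 10 ng, among 8735 genes with a mean of at least 10 CPM. These libraries share depth and possibly RNA between inputs, and the best of so many genes is high by selection, so the values are a description. Gabrd was closest to Krt12 (r = 0.912) and Fam162a (0.846). Gabrb1 was closest to 2410089E03Rik (0.881) and Eif4g1 (0.879), and Gabrb2 to Zfp326 (0.825) and again Eif4g1 (0.812).

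Among the alpha subunits, Gabra2 was closest to Ptp4a2 (r = 0.866) and Eml5 (0.854), Gabra4 to B230219D22Rik (0.858) and Atmin (0.844), Gabra3 to Chrdl1 (0.836) and Adgrl2 (0.811), and Gabra5 to Pim3 (0.771) and Asf1a (0.735). No subunit had another GABA-A subunit among its closest 2.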

How the data were processed

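The counts were made by the authors, who demultiplexed single-end 3'Pool-seq reads, trimmed poly(A), aligned to mm10 (STAR 2.4) and assigned reads with a single alignment to GENCODE vM6 genes by featureCounts. The submitters' processing notes name the build hg19, which the mouse gene identifiers contradict. The deposited table holds whole-number counts, not normalized. Its gene lengths, in bases, were used for CPM per kb. Counts were scaled to CPM by library totals. Genotypes and inputs came from the sample labels.

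edgeR 4.0.16 in R 4.3.3 (TMM, filterByExpr, quasi-likelihood test) was fitted to all genes, with Benjamini-Hochberg adjustment and a call at an adjusted p under 0.05. SEs were worked out from the F statistic. Genotypes were compared within each input, inputs in pairs with genotype as covariate, and interactions in a fit of all libraries. DESeq2 1.42.0 was an alternative, as were its size factors, no filter, a replicate block, thinning, summed counts and leaving out replicates. The scripts were tested on simulated data. Permutation tests used Python 3.11.15 and scipy 1.17.1, with a pseudocount of 0.5 CPM.

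The members and gene lists were chosen with earlier results of these data known. Named genes were the members, the 2 genes of highest mean CPM in each list, any gene called in a list and the 2 most similar genes per member, apart from some genes that are not reported here. Other genes named, such as Gabarap at 0.5 ng, Gabra6 and Gabrp, were chosen after their values were seen. Replicates are separately numbered libraries. The labels do not say that they came from separate animals, so p-values measure the spread between these libraries. In all 48 pairs of replicates the counts differed beyond sampling noise (chi-square per gene at least 2.37). The replicate number was not taken as a pairing.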

Additional observations from a re-analysis of the deposited data

Results flagged for a closer look

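Of 56 groups of 4 libraries (7 members, 2 genotypes, 4 inputs), 6 had a single library far from the other 3. Chance gives about 1 in 20 for separate groups of normally distributed values. These groups are not separate, since the members share libraries and inputs may share RNA. The number flagged can therefore not be read as an excess. GFAP-IL6 replicate 4 accounted for 3: Gabra2 at 115.1 CPM at 50 ng (others 69.8 to 69.97 CPM) and at 97.66 CPM at 10 ng (62.51 to 67.03 CPM), and Gabrb2 at 11.18 CPM at 10 ng (6.941 to 7.515 CPM). This is the library in which the astrocyte genes Slc1a2 (2602 CPM at 50 ng, 1802 CPM at 10 ng) and Slc1a3 (489.6 and 369.5 CPM) were above and Gfap (30.65 and 25.51 CPM) and Gja1 (110.4 and 136.8 CPM) below the other GFAP-IL6 libraries, and their part in these values was not tested. Gabrb2 in WT replicate 3 at 10 ng, at 4.547 CPM (others 7.925 to 8.226 CPM), was low in the library with choroid plexus markers, which summed to 3019 CPM at 10 ng. Gabrd was low in WT replicate 2 at 10 ng, at 72.65 CPM (others 105.7 to 111.9 CPM), and in WT replicate 1 at 0.5 ng, at 57.38 CPM (others 162.6 to 177.5 CPM). Leaving these out gave Gabrd genotype log2 fold changes of −0.55 at 10 ng and −1.39 at 0.5 ng. The library left out at 0.5 ng had the highest Gfap of the WT libraries there (30.8 CPM). Its summed astrocyte markers (1315 CPM) and microglia markers (146 CPM) were below every GFAP-IL6 library there. The part of its makeup in these values was not tested.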

How the results depend on the processing

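No member was called in any alternative, with 1 exception: of 675 alternative values of the 48 member log2 fold changes, 1 passed the threshold, Gabrd between genotypes at 0.5 ng in a single fit of all 32 libraries (−1.13, edgeR, adjusted p = 0.0292), which gave 1 member called. In all, 52 values reversed sign, in 24 of the 48 results. The cause was not tested for any of them. Thinning to the lowest total reversed the genotype values of Gabra2 (0.16), Gabra5 (−0.064) and Gabrb1 (−0.033) at 0.5 ng, Gabra4 (0.088) at 1 ng and Gabra5 (−0.11) at 10 ng, and 10 against 50 ng for Gabra5 (0.0052) and Gabrb2 (−0.076). Summing the 50 and 10 ng counts gave −0.047 for Gabra5, and the fit of all libraries gave 0.030 for Gabra3 at 10 against 50 ng.

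Same-numbered libraries correlated above 0.1 in their deviations from the group mean in 2, 1, 0 and 0 of 4 pairs across genotypes at 50, 10, 1 and 0.5 ng, and in 5, 3 and 1 of 8 pairs of 10, 1 and 0.5 ng with 50 ng, short of every pair. At each lower input 7 of 8 libraries correlated best with their own number at 50 ng. Markers recurred by number as well. Choroid plexus markers summed to 3019 to 3386 CPM in WT replicate 3 at every input. Summed oligodendrocyte markers fell in the order of GFAP-IL6 replicates 3, 1, 2 and 4 at every input, and WT replicates 2 and 3 lay above 1 and 4. The data thus point to a number marking the same animal or RNA across inputs, which the labels do not state and the main fits did not use. With the replicate block the genotype values of Gabrb1 at 0.5 ng (−0.11) and Gabrd at 1 ng (−0.015) and the 0.5 against 50 ng values of Gabrb1 (−0.053) and Gabrb2 (−0.021) reversed. The block called 0 members in any comparison, and over all genes it moved the calls from 40 to 77 between genotypes at 10 ng, from 3 to 7 at 1 ng, from 0 to 155 for 10 against 50 ng and from 129 to 224 for 1 against 50 ng.

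Leaving out 1 replicate called 0 members. The values that reversed ranged, at 0.5 against 50 ng, from −0.025 to 0.22 for Gabra2, −0.14 to 0.49 for Gabra3, −0.13 to 0.34 for Gabra4, −0.15 to 0.26 for Gabrb1 and −0.025 to 0.69 for Gabrb2. At 1 against 50 ng they ranged from −0.039 to 0.23 for Gabra4 and −0.60 to 0.089 for Gabrb2. At 10 against 50 ng they ranged from −0.041 to 0.092 for Gabra2, −0.11 to 0.065 for Gabra3 and −0.066 to 0.062 for Gabra5. Between genotypes they ranged from −0.31 to 0.10 for Gabra2, −0.18 to 0.69 for Gabra4 and −0.51 to 0.33 for Gabrb1 at 0.5 ng. At 1 ng the genotype ranges were −0.34 to 0.19 for Gabra4, −0.14 to 0.40 for Gabra5, −0.013 to 0.34 for Gabrb1 and −0.19 to 0.41 for Gabrd. At 10 ng they were −0.042 to 0.39 for Gabra3, −0.19 to 0.000199 for Gabra4, −0.033 to 0.25 for Gabra5 and −0.050 to 0.28 for Gabrb2, and at 50 ng −0.12 to 0.32 for Gabra3.

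Neighbours told apart at 50 ng numbered 3 to 4 of 6 over these. The mean number of members detected per library fell at 50 ng from 7 to 6.5 above 5 CPM and to 6.625 after thinning, and at 10 ng to 6.875 above 5 CPM. In the fit of all 32 libraries, calls over all genes went from 33 to 3 at 50 ng, 40 to 4 at 10 ng, 3 to 12 at 1 ng and 1 to 655 at 0.5 ng between genotypes, and from 192 to 818 for 0.5 against 50 ng. DESeq2 made 62, 13 and 22 calls between genotypes at 10, 1 and 0.5 ng, and 31, 456 and 788 for 10, 1 and 0.5 against 50 ng. Without the filter the 7 counts were 93, 64, 11, 5, 2, 266 and 833. Thinning gave 18 at 50 ng, 6 at 1 ng and 1 for 10 against 50 ng, summing 65 at 50 and 10 ng, and a fold of over 1 on the log2 scale 29 and 87 for 1 and 0.5 against 50 ng. Leaving out a replicate gave 11 to 78 at 50 ng, 0 to 20 for 10 against 50 ng and 71 to 206 for 1 against 50 ng. At 0.5 ng depth and spread limit Gabra3 and Gabrb2, the lowest in CPM, with SEs of 1.03 and 1.42 between genotypes.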

Other observations

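Gabra2 and Gabrd went opposite ways in GFAP-IL6 replicate 4, and their ratio, chosen after the values were seen and therefore not tested, summarises this. The ratio of Gabrd to Gabra2 CPM at 50 ng was 1.18, 1.78, 1.80 and 1.90 in WT replicates 1 to 4 and 1.20, 1.16, 1.06 and 0.509 in GFAP-IL6. At 10 ng it was 1.84, 0.982, 2.13 and 1.64 in WT and 1.33, 1.19, 1.13 and 0.667 in GFAP-IL6. At these inputs GFAP-IL6 replicate 4 had the lowest ratio, and 1 library of the other genotype lay across: WT replicate 1 below GFAP-IL6 replicate 1 at 50 ng, and WT replicate 2 at 10 ng. The order did not carry over to the lower inputs. At 1 ng the ratio was 2.32, 1.12, 1.21 and 1.20 in WT and 0.674, 9.20, 1.03 and 0.608 in GFAP-IL6, and at 0.5 ng it was 1.06, 2.34, 1.87 and 2.71 in WT and 0.762, 1, 2.19 and 0.777 in GFAP-IL6. The highest ratio at 1 ng thus belonged to GFAP-IL6 replicate 2.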
